A study of Mus musculus with 9 samples.

Results

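The genes described here are 10 genes that brain endothelial cells are known to use for the blood-brain barrier: Cldn5, Pecam1, Cdh5, Flt1, Tek, Slco1c1, Mfsd2a, Slc2a1, Abcb1a and Abcg2. They were taken by symbol from the 27339 genes of the deposited table, and all 10 were present. RNA from the substantia nigra pars compacta, the midbrain region that holds the dopamine neurons of the nigrostriatal pathway, was sequenced in bulk from mice of 3 groups with 3 libraries each. The MPTPKD libraries came from mice given MPTP, a toxin taken up by dopamine neurons after its conversion in glia, together with a ketogenic diet based on medium-chain triglycerides. The MPTP libraries came from mice given the toxin, and the Ctrl libraries from control mice. The sources used here give no strain, age, sex, dose or timing of toxin and diet, and mice on the diet with no toxin were not analysed here. The labels do not say whether each library is a separate animal. Every p-value rests on the spread between these libraries, which may be technical.

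Capillary endothelial cells of the brain are joined by tight and adherens junctions that close the gaps between them. Nutrients therefore cross on carrier proteins, and pumps on the blood side return many lipophilic compounds to the blood. Pericytes and astrocyte endfeet wrap the vessel, and growth factors from neighbouring cells act on endothelial receptors. In bulk tissue, fewer endothelial cells and less RNA per cell cannot be told apart.

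Each library held 33.2 M to 40.0 M counted reads. Levels of 1 gene between libraries are given as read counts scaled to a common library size (CPM, by the trimmed mean of M values), and levels of different genes as the authors' FPKM, which divides by transcript length. Markers of the labelled region were present: Th, the enzyme that makes the dopamine precursor, lay at 48.1 to 78.2 CPM in MPTPKD libraries, 55.3 to 68.0 CPM in MPTP libraries and 69.0 to 108 CPM in Ctrl libraries. Endothelial cells were represented in all 9 libraries. The 24 other endothelial identity genes, such as Tie1, Kdr and Emcn, summed to 443 to 473 CPM in MPTPKD libraries, 425 to 457 CPM in MPTP libraries and 421 to 470 CPM in Ctrl libraries. The library Ctrl 3 stood apart in choroid plexus genes, which summed to 1302 CPM there against 45.04 to 124 CPM in the 8 others.

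All 10 genes were well above the low-value filter, a mean of at least 0.5 FPKM, that left 14949 genes for testing. The smallest count of any of them in a library was 503 reads (Cdh5) and the largest was 6392 (Slc2a1). By FPKM over the 9 libraries, the glucose carrier Slc2a1 was highest at 38.9 ± 6.30 (SD, n = 9) and the tight junction gene Cldn5 followed at 32.8 ± 3.55. Flt1 (14.2 ± 0.631 FPKM), Slco1c1 (13.3 ± 2.09 FPKM) and Mfsd2a (10.8 ± 1.82 FPKM) came next. Abcb1a (9.02 ± 0.587 FPKM) and Pecam1 (8.78 ± 0.603 FPKM) stood in the middle. Abcg2 (5.77 ± 0.624 FPKM), Tek (4.33 ± 0.318 FPKM) and Cdh5 (4.14 ± 0.561 FPKM) were lowest, so the means spanned 9.41-fold. Between neighbours in that order, ranges over libraries were apart only from Cldn5 to Flt1 and from Pecam1 to Abcg2. Slc2a1 lay above Cldn5 in 8 of 9 libraries, while Abcb1a lay above Pecam1, and Tek above Cdh5, in 6 of 9.

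**Figure D1:**
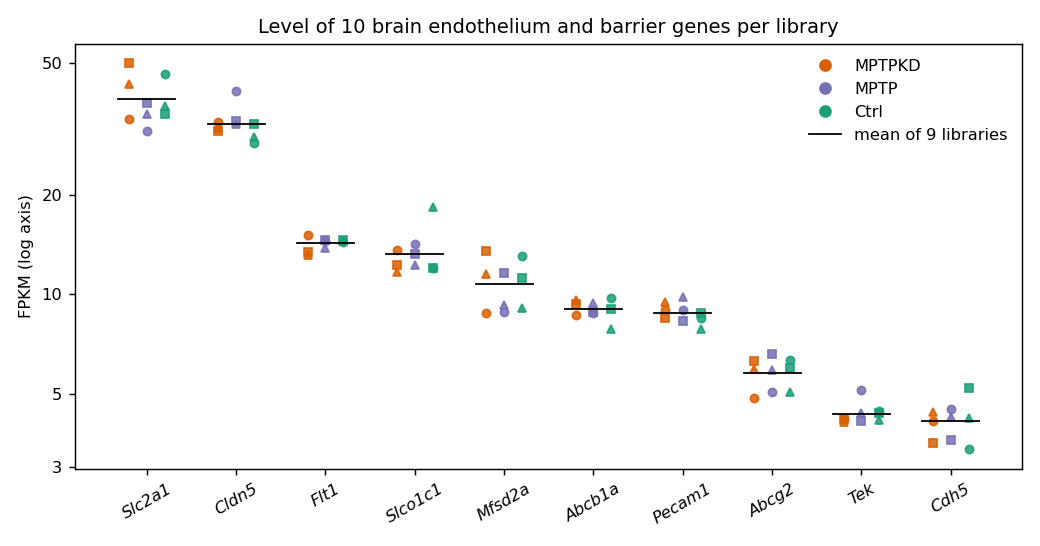
FPKM (log axis) of the 10 genes in each library, ordered by mean, with MPTPKD, MPTP and Ctrl libraries in separate colours (circle, square and triangle for replicates 1, 2 and 3) and a bar at the mean of 9 libraries. Slc2a1 and Cldn5 stand at the top with means of 38.9 and 32.8 FPKM, and Cdh5 stands at the bottom with 4.14 FPKM.

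None of the 10 genes differed between groups past the threshold in any of the 3 comparisons, by edgeR's quasi-likelihood test with Benjamini-Hochberg adjustment over all genes tested at 0.05. In MPTP against Ctrl libraries 0 of 10 passed, where 0.0134% of all genes tested did (2 genes). In MPTPKD against MPTP libraries 0 of 10 passed, where 0.0% of all genes did. In MPTPKD against Ctrl libraries 0 of 10 passed, where 0.0% of all genes did. At an unadjusted p under 0.05 the counts were 1 of 10 (Cldn5), 0 of 10 and 0 of 10 in the same order of comparisons, beside 5.36%, 7.78% and 6.73% of all genes. DESeq2 and limma also called 0 of the 10 in each comparison. For 0 of the 10 did 3 libraries of a group lie wholly apart from the 3 of another. Of all genes, 10.5% did so in MPTP against Ctrl, 13.7% in MPTPKD against MPTP and 12.7% in MPTPKD against Ctrl. With only 10 genes, 0 is near those shares and does not set them apart.

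**Figure D2:**
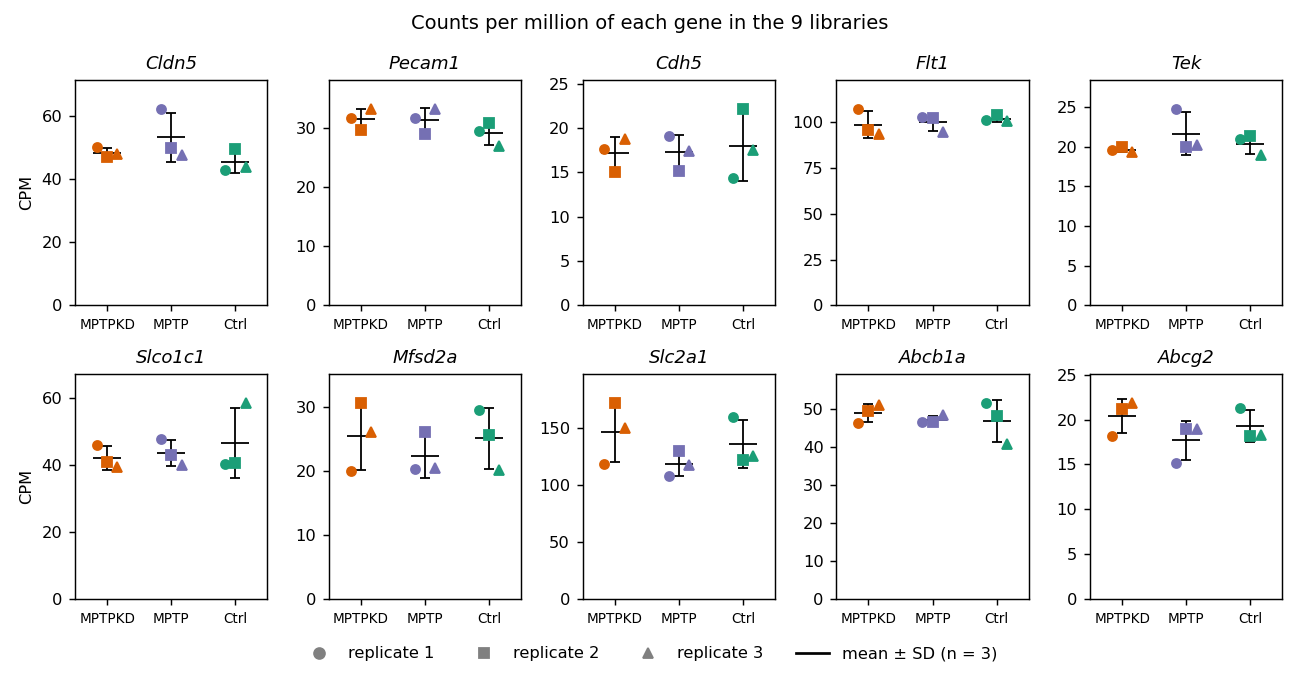
CPM of each gene (axis from 0) in MPTPKD, MPTP and Ctrl libraries, 1 point per library with the group mean and SD (n = 3). Groups overlap for every gene, and Mfsd2a, Cdh5 and Slc2a1 show the widest spread within a group.

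Cldn5 encodes claudin-5, the main claudin of brain endothelial tight junctions, and lies at chr16:18776847-18778262 (GRCm38, plus strand). It had 50.3, 47.0 and 47.9 CPM in MPTPKD libraries, 62.3, 49.99 and 47.7 CPM in MPTP libraries and 42.9, 49.5 and 43.9 CPM in Ctrl libraries. The library MPTP 1 was the highest of the 9, and the other 2 MPTP libraries lay within the range of the MPTPKD libraries. Group means were 48.4 ± 1.70 CPM for MPTPKD, 53.3 ± 7.85 CPM for MPTP and 45.4 ± 3.54 CPM for Ctrl (SD, n = 3 each). The log2 fold change of MPTP against Ctrl was 0.23 ± 0.09 (SE; edgeR adjusted p = 0.893), and without MPTP 1 it was 0.11. That of MPTPKD against MPTP was -0.14 ± 0.09 (edgeR adjusted p = 0.746), and without MPTP 1 it was -0.01.

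Pecam1 encodes CD31, an adhesion molecule at contacts between endothelial cells, and lies at chr11:106654217-106750628 (minus strand). It had 31.6, 29.7 and 33.1 CPM in MPTPKD libraries, 31.7, 28.9 and 33.1 CPM in MPTP libraries and 29.5, 30.8 and 27.0 CPM in Ctrl libraries. The highest MPTPKD and MPTP libraries were level with each other, and Ctrl 3 was the lowest library. Its largest difference was a log2 fold change of 0.11 ± 0.08 (SE) in MPTPKD against Ctrl, with an edgeR adjusted p of 0.843.

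Cdh5 encodes VE-cadherin, the cadherin of endothelial adherens junctions, and lies at chr8:104101625-104144511 (plus strand). It had 17.6, 15.1 and 18.7 CPM in MPTPKD libraries, 19.1, 15.2 and 17.4 CPM in MPTP libraries and 14.3, 22.1 and 17.5 CPM in Ctrl libraries. Both its lowest and its highest value came from Ctrl libraries, so the other groups lay inside the Ctrl range. The log2 fold changes against Ctrl were -0.07 ± 0.15 for MPTPKD and -0.06 ± 0.15 for MPTP (SE). The junction list beyond the members, with Ocln, Esam, Jam2 and Cgn among its genes, had 10 of 11 genes tested and none past the threshold in any comparison. Ocln, the tight junction protein occludin, was 0.26 ± 0.12 above in MPTPKD against MPTP on the log2 scale, and Cgn, the junction scaffold cingulin, was at -0.26 ± 0.11 (SE; edgeR adjusted p = 0.637 and 0.630).

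Flt1 encodes VEGF receptor 1, which binds VEGF-A tightly with weak kinase signalling, and lies at chr5:147561604-147726011 (minus strand). It was the steadiest of the 10, with a within-group SD of 0.0744 on the log2 CPM scale against a median of 0.123 over all genes tested. It had 107, 95.7 and 93.6 CPM in MPTPKD libraries, 103, 103 and 94.6 CPM in MPTP libraries and 102, 104 and 101 CPM in Ctrl libraries. Ctrl libraries lay between the highest and the lowest MPTPKD libraries. The ratio of MPTPKD to Ctrl was 0.968 with a 95% interval of 0.883 to 1.06, and that of MPTP to Ctrl was 0.980 with an interval of 0.894 to 1.07.

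Tek encodes Tie2, the receptor of the angiopoietins that holds vessels in a quiescent state, and lies at chr4:94739289-94874976 (plus strand). It had 19.6, 20.04 and 19.3 CPM in MPTPKD libraries, 24.8, 19.97 and 20.2 CPM in MPTP libraries and 20.96, 21.3 and 18.9 CPM in Ctrl libraries. As for Cldn5, the library MPTP 1 was the highest, and the MPTPKD libraries were close together near the bottom of the range. The log2 fold change of MPTPKD against MPTP was -0.14 ± 0.10 (SE; edgeR adjusted p = 0.756). That of MPTP against Ctrl was 0.09 ± 0.10, and it was -0.02 without MPTP 1.

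A list of 12 VEGF and angiopoietin genes held ligands, co-receptors and further receptors. Of these 11 were tested and none passed the threshold. In MPTPKD against MPTP 3 were above and 8 below 0 (median log2 fold change -0.14), and in MPTPKD against Ctrl also 3 and 8 (median -0.13). In MPTP against Ctrl 5 were above and 6 below (median -0.02). The gene nearest to the threshold was Vegfa, the ligand of both Flt1 and Kdr. Vegfa had 66.6, 65.1 and 65.3 CPM in MPTPKD libraries, 68.2, 70.5 and 77.4 CPM in MPTP libraries and 84.5, 90.5 and 89.0 CPM in Ctrl libraries. All 6 libraries from toxin-treated mice lay below all 3 Ctrl libraries, and the MPTPKD libraries lay below the MPTP libraries. The log2 fold change of MPTPKD against Ctrl was -0.42 ± 0.06 (SE; edgeR adjusted p = 0.0823). It was past the threshold in 5 of 21 alternatives: DESeq2 (adjusted p = 1.99e-06), no filter on low values (0.0148), the 2 groups alone (0.0179), the replicate block (0.0360) and without MPTP 3 (0.0120). In the 16 others its adjusted p ranged from 0.0532 (edgeR without MPTP 1) to 0.817 (edgeR without Ctrl 3). The log2 fold change of MPTP against Ctrl was -0.29 ± 0.06 (edgeR adjusted p = 0.349) and past the threshold with DESeq2 (adjusted p = 0.0196), the 20 other alternatives giving 0.228 to 1.0. That of MPTPKD against MPTP was -0.13 ± 0.06 (edgeR adjusted p = 0.630). Both comparisons with Ctrl share the Ctrl libraries.

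Kdr, the main signalling VEGF receptor of endothelium, had 17.4, 15.6 and 15.7 CPM in MPTPKD libraries, 20.7, 21.1 and 21.8 CPM in MPTP libraries and 12.2, 20.5 and 20.6 CPM in Ctrl libraries. The MPTPKD libraries lay below the MPTP libraries, but Ctrl 1 was the lowest of all. Tie1, the partner receptor of Tek, had 17.8, 16.4 and 16.8 CPM in MPTPKD libraries, 19.4, 18.9 and 21.5 CPM in MPTP libraries and 17.3, 17.4 and 18.8 CPM in Ctrl libraries. In MPTPKD against MPTP the log2 fold changes were -0.39 ± 0.17 for Kdr and -0.23 ± 0.09 for Tie1 (SE), each with an edgeR adjusted p of 0.630.

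Slc2a1, Mfsd2a, Abcg2 and Abcb1a shared MPTPKD 2 and Ctrl 1 among their 3 highest libraries, across the groups, and the bases before their RefSeq transcription starts are shown for that reason. Coordinates are GRCm38.p6, each sequence runs 5′ to 3′ on the gene's strand, and bases of annotated untranslated regions are left out. Capitals mark the ETS core AGGAAG and the TCF/LEF core CTTTGA, each read on either strand, so that a match on the other strand shows its reverse complement.
Slc2a1, chr4:119108495-119108710, plus strand: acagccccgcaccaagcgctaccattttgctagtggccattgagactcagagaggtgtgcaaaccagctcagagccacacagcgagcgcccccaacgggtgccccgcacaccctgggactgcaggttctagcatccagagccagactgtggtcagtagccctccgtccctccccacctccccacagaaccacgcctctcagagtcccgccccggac
Mfsd2a, chr4:122961189-122961438, minus strand: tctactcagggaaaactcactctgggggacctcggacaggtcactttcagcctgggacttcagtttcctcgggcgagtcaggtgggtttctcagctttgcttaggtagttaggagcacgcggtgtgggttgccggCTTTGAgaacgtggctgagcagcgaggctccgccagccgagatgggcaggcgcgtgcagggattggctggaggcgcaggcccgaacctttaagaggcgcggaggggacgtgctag
Abcg2 start 1, chr6:58584283-58584522, plus strand: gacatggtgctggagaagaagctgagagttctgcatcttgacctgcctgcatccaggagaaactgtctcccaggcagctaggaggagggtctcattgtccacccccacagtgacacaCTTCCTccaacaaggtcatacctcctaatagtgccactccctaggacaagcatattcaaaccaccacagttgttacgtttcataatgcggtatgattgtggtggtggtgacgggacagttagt
Abcg2 start 2, chr6:58596422-58596670, plus strand: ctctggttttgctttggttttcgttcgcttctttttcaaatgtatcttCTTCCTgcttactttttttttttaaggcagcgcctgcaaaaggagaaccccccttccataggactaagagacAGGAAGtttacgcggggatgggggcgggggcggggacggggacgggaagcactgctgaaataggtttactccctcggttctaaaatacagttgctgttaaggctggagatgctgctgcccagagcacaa
Abcg2 start 3, chr6:58640296-58640545, plus strand: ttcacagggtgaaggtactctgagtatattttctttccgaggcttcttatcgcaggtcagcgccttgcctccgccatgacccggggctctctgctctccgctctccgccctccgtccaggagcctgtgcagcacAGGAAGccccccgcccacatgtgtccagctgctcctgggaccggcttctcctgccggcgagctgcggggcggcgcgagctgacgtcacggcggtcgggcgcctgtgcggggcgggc
Abcb1a, chr5:8566841-8567090, plus strand: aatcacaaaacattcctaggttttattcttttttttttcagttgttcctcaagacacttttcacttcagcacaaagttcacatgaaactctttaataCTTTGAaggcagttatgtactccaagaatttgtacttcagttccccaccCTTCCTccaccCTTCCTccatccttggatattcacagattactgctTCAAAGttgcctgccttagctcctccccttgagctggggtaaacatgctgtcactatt

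The motifs searched, on both strands, were the ETS cores CCGGAA and AGGAAG, the SOX motif AACAAT and the TCF/LEF core CTTTGA, which do not overlap in the sequences above. The Slc2a1 stretch held none of them, Mfsd2a held CTTTGA, each of the 3 Abcg2 stretches held AGGAAG, and Abcb1a held both AGGAAG and CTTTGA. The RefSeq start of Abcb1a, at position 8567091 of chromosome 5, lies before the GENCODE start of the gene at 8660077. RefSeq windows of 300 bases were found for 8 of the 10 genes. In their first window, 4 of 8 held either ETS core, beside 45.2% of all 32851 windows. AACAAT was in 1 of 8, beside 10.7% of all windows, and CTTTGA in 2 of 8, beside 16% of all windows. A match is a description of the letters and no site was measured.

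Slc2a1 encodes GLUT1, which carries glucose across the barrier, and lies at chr4:119108711-119137983 (plus strand). It had 118, 172 and 150.0 CPM in MPTPKD libraries, 108, 129 and 117 CPM in MPTP libraries and 160, 121 and 125 CPM in Ctrl libraries. MPTPKD 2, Ctrl 1 and MPTPKD 3 were the 3 highest libraries, while MPTPKD 1 lay among the MPTP libraries. Group means were 147 ± 26.9 CPM for MPTPKD, 118 ± 10.8 CPM for MPTP and 135 ± 21.1 CPM for Ctrl (SD, n = 3 each). The largest fold change of the 10 genes was that of Slc2a1 in MPTPKD against MPTP, a log2 value of 0.31 ± 0.16 (SE; edgeR adjusted p = 0.680). It was 0.44 without MPTPKD 1 and 0.19 without MPTPKD 2. Against Ctrl, the log2 fold change was 0.11 ± 0.16 for MPTPKD and -0.20 ± 0.16 for MPTP.

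Mfsd2a encodes the carrier of lysophospholipids with long-chain omega-3 fatty acids, which also holds down vesicle transport across the endothelium, and lies at chr4:122946850-122961188 (minus strand). It had 19.98, 30.7 and 26.1 CPM in MPTPKD libraries, 20.3, 26.1 and 20.5 CPM in MPTP libraries and 29.6, 25.6 and 20.2 CPM in Ctrl libraries. MPTPKD 2 and Ctrl 1 were again the 2 highest, and each group reached down to about the same lowest level. It had the widest within-group spread of the 10, an SD of 0.269 on the log2 CPM scale. The log2 fold changes were 0.20 ± 0.18 in MPTPKD against MPTP, -0.17 ± 0.18 in MPTP against Ctrl and 0.02 ± 0.18 in MPTPKD against Ctrl (SE; edgeR adjusted p = 0.824, 0.956 and 0.986).

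Abcg2 encodes the breast cancer resistance protein, a pump of the luminal membrane, and lies at chr6:58584523-58695676 (plus strand). It had 18.2, 21.1 and 21.9 CPM in MPTPKD libraries, 15.1, 19.0 and 19.0 CPM in MPTP libraries and 21.3, 18.2 and 18.3 CPM in Ctrl libraries. Its 3 highest libraries were MPTPKD 3, Ctrl 1 and MPTPKD 2, the same 3 as for Slc2a1 and Abcb1a. In MPTPKD against MPTP the log2 fold change was 0.21 ± 0.12 (SE; edgeR adjusted p = 0.690). With limma on log2(FPKM + 0.5) it was -0.04, and in MPTP against Ctrl it was 0.01 by limma, against -0.13 ± 0.12 by edgeR on counts.

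Count and FPKM together give the transcript length that the authors' values imply, and for Abcg2 that length differed between libraries. Relative to its mean it was 1.11, 1.01 and 1.1 in MPTPKD libraries, 0.884, 0.868 and 0.979 in MPTP libraries and 1.02, 0.918 and 1.11 in Ctrl libraries. The MPTP libraries lay below the MPTPKD libraries and overlapped the Ctrl libraries. The highest over the lowest was 1.28 for Abcg2, against 1.02 to 1.06 for the 9 other genes and a median of 1.03 over 12482 genes with at least 100 reads in every library. Of those genes, 3.51% were at or above Abcg2. The 3 RefSeq starts of Abcg2, at positions 58584533, 58596672 and 58640546 of chromosome 6, are shown with the bases before them, and their part in the length was not tested.

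**Figure D3:**
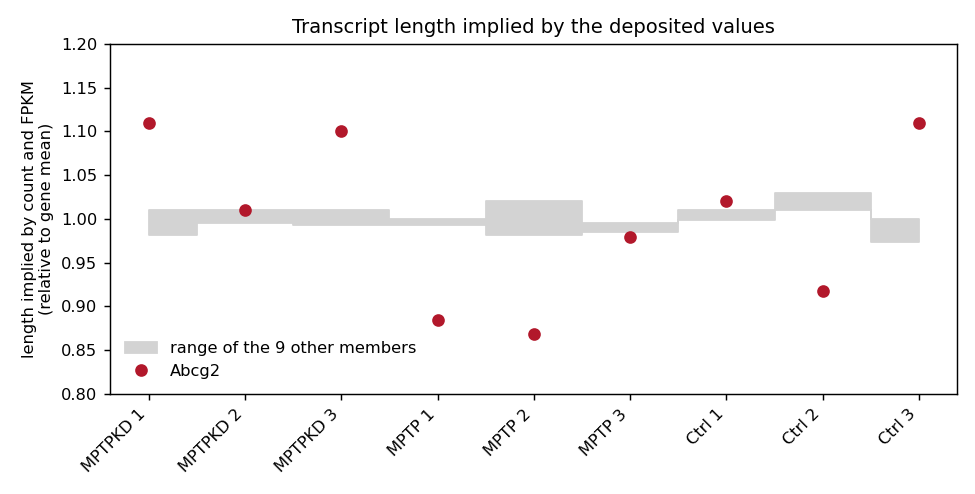
Transcript length implied by count and FPKM, relative to each gene's mean, in the 9 libraries. Points are Abcg2, from 0.868 in MPTP 2 to 1.11 in MPTPKD 1 and Ctrl 3, and the grey band is the range of the 9 other genes.

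Levels of other gene groups in the same libraries are given beside these values. A list of 17 glucocorticoid-induced genes, among them Fkbp5, Sgk1, Zbtb16 and Plin4, was assembled after these values were seen. Zbtb16 and Plin4 are among the genes most like Slc2a1 (r = 0.951 over 9 libraries) and Mfsd2a (r = 0.911), so the choice of genes fixed the shared library pattern. It summed to 693, 1036 and 941 CPM in MPTPKD libraries, 655, 684 and 603 CPM in MPTP libraries and 982, 673 and 638 CPM in Ctrl libraries. MPTPKD 2, Ctrl 1 and MPTPKD 3 stood above the 6 others. Zbtb16, a transcription factor, had 17.1, 57.0 and 61.9 CPM in MPTPKD libraries, 10.96, 24.3 and 16.98 CPM in MPTP libraries and 43.8, 16.01 and 16.8 CPM in Ctrl libraries. None of the 17 passed the threshold in any comparison, the lowest edgeR adjusted p being 0.469 in MPTPKD against MPTP. The smooth muscle genes Acta2, Tagln, Myh11 and Cnn1, 4 of the 16 mural cell genes, summed to 50.6, 98.6 and 82.1 CPM in MPTPKD libraries, 38.5, 41.2 and 50.7 CPM in MPTP libraries and 84.5, 76.5 and 59.3 CPM in Ctrl libraries. The 16 mural cell genes as a whole did not share one direction. The log2 fold changes had 7 above and 9 below 0 (median -0.07) in MPTPKD against MPTP, and in MPTP against Ctrl 9 were above and 7 below with a median of 0.04. Cspg4 and Abcc9, both known in pericytes, had log2 fold changes of 0.22 ± 0.08 and 0.24 ± 0.11 in MPTP against Ctrl (SE, edgeR adjusted p = 0.893 and 0.904). Pdgfrb, Atp13a5 and Anpep of the same list were of like size there, at 0.19 ± 0.10, 0.22 ± 0.12 and 0.22 ± 0.27 (SE). Others of the list were smaller or below 0. Rgs5 was at 0.07 ± 0.07, Kcnj8 at -0.05 ± 0.19, Vtn at -0.16 ± 0.16 and Des at -0.18 ± 0.24 (SE). The 12 meningeal fibroblast genes summed to 121, 265 and 324 CPM in MPTPKD libraries, 96.2, 119 and 207 CPM in MPTP libraries and 274, 212 and 198 CPM in Ctrl libraries. The part of these gene groups in the values of Slc2a1, Mfsd2a, Abcg2 and Abcb1a was not tested.

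**Figure D4:**
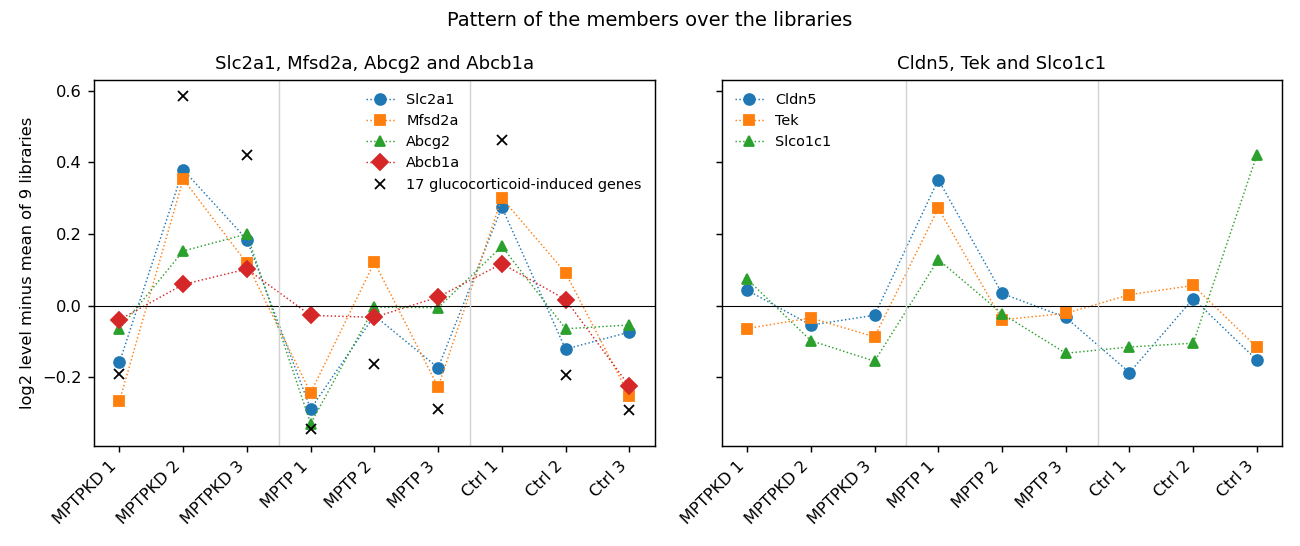
Log2 CPM of each gene minus its mean over 9 libraries, for Slc2a1, Mfsd2a, Abcg2 and Abcb1a with the mean of 17 glucocorticoid-induced genes chosen after these values were seen (left) and for Cldn5, Tek and Slco1c1 (right); dotted lines join points of 1 gene and carry no order. MPTPKD 2, MPTPKD 3 and Ctrl 1 stand high on the left, and MPTP 1 (Cldn5, Tek) and Ctrl 3 (Slco1c1) on the right.

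Slco1c1 encodes OATP1C1, the thyroxine carrier of brain capillaries, also known in choroid plexus epithelium, and lies at chr6:141524368-141570177 (plus strand). It had 46.0, 40.8 and 39.2 CPM in MPTPKD libraries, 47.7, 43.0 and 39.8 CPM in MPTP libraries and 40.3, 40.6 and 58.4 CPM in Ctrl libraries. Ctrl 3 was the highest of the 9, and the other Ctrl libraries lay among the MPTPKD and MPTP libraries. The log2 fold changes against Ctrl were -0.14 ± 0.14 for MPTPKD and -0.09 ± 0.14 for MPTP (SE; edgeR adjusted p = 0.896 and 0.971). Without Ctrl 3 they were 0.06 for MPTPKD and 0.11 for MPTP. Ttr, the transthyretin gene of choroid plexus epithelium, had 1064 CPM in Ctrl 3 and 2.17 to 69.4 CPM in the other 8 libraries; its part in the Slco1c1 value was not tested.

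Abcb1a encodes P-glycoprotein, the main efflux pump of mouse brain capillaries, and lies at chr5:8660077-8748575 (plus strand). It had 46.2, 49.5 and 51.0 CPM in MPTPKD libraries, 46.6, 46.5 and 48.3 CPM in MPTP libraries and 51.5, 48.1 and 40.7 CPM in Ctrl libraries. The 3 highest libraries were Ctrl 1, MPTPKD 3 and MPTPKD 2, as for Slc2a1 and Abcg2, over a narrower range. The MPTP libraries lay within the MPTPKD range, and both groups lay within the Ctrl range. The ratio of MPTPKD to MPTP was 1.04 with a 95% interval of 0.918 to 1.17, and that of MPTP to Ctrl was 1.01 with an interval of 0.892 to 1.14. The coding sequence of Abcb1a was 88.2% identical to that of its neighbour Abcb1b, with 338 bases as the longest exact run, so reads could be exchanged between them. Abcb1b stood at 2.48 to 3.62 CPM in MPTPKD libraries, 2.75 to 4.27 CPM in MPTP libraries and 2.01 to 4.05 CPM in Ctrl libraries. The other pumps (Abcb1b, Abcc1, Abcc3, Abcc4, Abcc5 and Abcc6) had 4 of 6 genes tested and none past the threshold.

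Of the 16 further barrier carriers, all were tested and none passed the threshold. The one with the smallest p was Slc6a6, the taurine carrier, whose log2 fold change was -0.25 ± 0.05 in MPTPKD against MPTP (SE; edgeR adjusted p = 0.469), 0.15 ± 0.05 in MPTP against Ctrl and -0.10 ± 0.05 in MPTPKD against Ctrl. Of 19 genes of the Wnt pathway that sets up and keeps the barrier, all were tested and none passed. Fzd6, a Wnt receptor, had a log2 fold change of 0.45 ± 0.11 in MPTPKD against Ctrl and 0.51 ± 0.11 in MPTP against Ctrl (edgeR adjusted p = 0.740 and 0.397). Fzd4, the norrin receptor of brain endothelium, had -0.49 ± 0.15 in MPTP against Ctrl (edgeR adjusted p = 0.868). Of 10 genes of leak and activation, 6 were tested and none passed. Vcam1, a leukocyte adhesion molecule, had 24.5, 23.8 and 26.4 CPM in MPTPKD libraries, 24.2, 24.1 and 25.1 CPM in MPTP libraries and 27.1, 26.5 and 31.0 CPM in Ctrl libraries. All 6 libraries from toxin-treated mice lay below the Ctrl libraries, with log2 fold changes of -0.18 ± 0.08 for MPTPKD and -0.21 ± 0.08 for MPTP (SE; edgeR adjusted p = 0.740 and 0.893). Angpt2, the ligand that can oppose Tek signalling, was at 0.69 ± 0.29 in MPTP against Ctrl with groups apart, at means of only 3.35 CPM in MPTP and 2.07 CPM in Ctrl libraries (edgeR adjusted p = 0.893). Plvap, which marks fenestrated vessels and is low in intact barrier capillaries, stood at 8.60 to 10.5 CPM in MPTPKD libraries, 6.79 to 10.7 CPM in MPTP libraries and 8.77 to 11.8 CPM in Ctrl libraries, and the groups overlapped. Of 12 basement membrane genes, 16 mural cell genes and 10 astrocyte endfoot genes, all were tested and none passed. Aqp4, the water channel of astrocyte endfeet, had a log2 fold change of 0.22 ± 0.08 in MPTPKD against Ctrl (SE, edgeR adjusted p = 0.740). The median of the 10 endfoot genes there was 0.04, with 9 above and 1 below 0. Col4a2, a basement membrane collagen, had a log2 fold change of -0.34 ± 0.08 in MPTPKD against MPTP and 0.21 ± 0.08 in MPTP against Ctrl (edgeR adjusted p = 0.550 and 0.893). Col4a1 of the same list had -0.03 ± 0.07 and 0.09 ± 0.07 (SE). The 12 basement membrane genes had a median of 0.03 in MPTPKD against MPTP, with 7 above and 5 below 0. In MPTP against Ctrl their median was -0.01, with 6 above and 6 below.

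The intervals show what sizes of change the data leave possible for the 10 genes. In MPTPKD against Ctrl, all 10 of the 95% intervals lay within 1.5-fold either way, and their outer bounds were ratios of 0.726 (Slco1c1) and 1.40 (Slc2a1). In MPTPKD against MPTP 8 of 10 did, with outer bounds of 0.774 (Slco1c1) and 1.60 (Slc2a1). In MPTP against Ctrl 9 of 10 did, with outer bounds of 0.666 (Mfsd2a) and 1.35 (Cldn5). The intervals are for single genes and are not adjusted over the genes. The median log2 fold change of the 10 genes was 0.04 in MPTPKD against Ctrl with 6 above and 4 below 0, 0.000902 in MPTPKD against MPTP with 5 above and 5 below, and -0.04 in MPTP against Ctrl with 4 above and 6 below. Over all genes tested the medians were -0.00146, 0.000556 and -0.000922. The other 24 endothelial identity genes had medians of 0.01, 0.04 and 0.02, and none passed the threshold. Ly6a, an endothelial surface antigen, had the smallest p among them, with a log2 fold change of 0.39 ± 0.12 in MPTPKD against Ctrl and groups apart (edgeR adjusted p = 0.740).

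Medians of arterial and venous endothelial genes lay further from 0 than those of the 10 genes and the 24 identity genes in MPTPKD against MPTP and in MPTP against Ctrl. In MPTPKD against Ctrl this held for the arterial genes only. None of the genes in either list passed the threshold. Of 9 arterial genes tested, the log2 fold changes of 3 were above and 6 below 0 in MPTPKD against Ctrl (median -0.10). For MPTPKD against MPTP 7 were above and 2 below with a median of 0.24, and in MPTP against Ctrl 2 were above and 7 below with a median of -0.26. Efnb2, the arterial ephrin ligand, had log2 fold changes of 0.27 ± 0.17 in MPTPKD against MPTP and -0.37 ± 0.17 in MPTP against Ctrl (SE; edgeR adjusted p = 0.720 and 0.904). In the same order Mgp was at 0.93 ± 0.68 and -0.89 ± 0.68. Hey1 (-0.06 ± 0.07 and 0.03 ± 0.07) and Gja4 (-0.47 ± 0.20 and 0.09 ± 0.20) went the other way. The 12 meningeal fibroblast genes had medians of 0.71 and -0.53 there, and their part in the arterial values was not tested. Of 6 venous genes tested, 4 were above and 2 below 0 in MPTPKD against Ctrl with a median of 0.01. For MPTPKD against MPTP 5 were above and 1 below with a median of 0.07, and in MPTP against Ctrl 0 were above and 6 below with a median of -0.14. The arterial genes summed to 98.3, 131 and 119.5 CPM in MPTPKD libraries, 95.6, 96.9 and 116 CPM in MPTP libraries and 131, 121 and 109 CPM in Ctrl libraries, so the groups overlapped. The venous genes summed to 131.6 to 140.8 CPM in MPTPKD, 119.5 to 131.3 CPM in MPTP and 127.3 to 142.0 CPM in Ctrl libraries. There MPTPKD libraries lay just above MPTP libraries, and both overlapped Ctrl. By mean log2 level (Ctrl mean 0), venous genes were at -0.09 to 0.07 in MPTPKD, -0.28 to -0.06 in MPTP and -0.03 to 0.03 in Ctrl libraries.

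**Figure D5:**
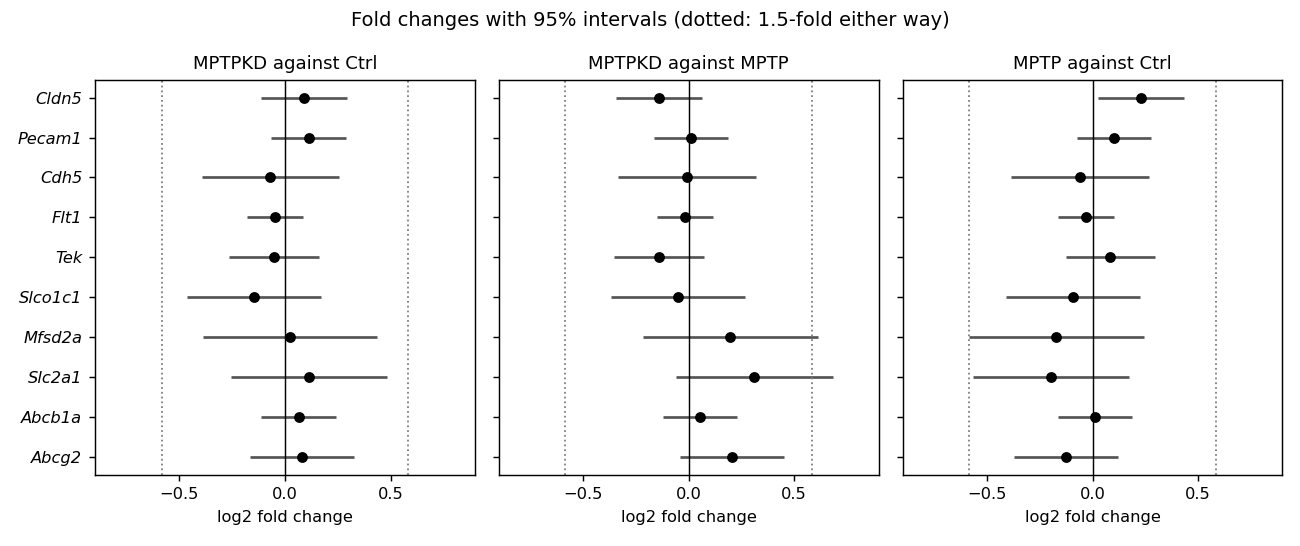
Log2 fold changes of the 10 genes with 95% intervals from edgeR in MPTPKD against Ctrl, MPTPKD against MPTP and MPTP against Ctrl; dotted lines mark 1.5-fold either way. All intervals include 0 apart from that of Cldn5 in MPTP against Ctrl, and those of Slc2a1 and Mfsd2a in MPTPKD against MPTP and Mfsd2a in MPTP against Ctrl cross a dotted line.

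The genes whose pattern over the libraries was most like the mean standardised log2 CPM of the 10 were looked for among 13800 annotated genes. Over the 9 libraries the highest Pearson r were those of Mon1b (0.945), Aqp9 (0.918), H2afy2 (0.917), Tln2 (0.906) and Nkain3 (0.905), given as a description. The mean profile was -0.52 in Ctrl 3 and between -0.255 and 0.264 in the 8 others, so Ctrl 3 was its lowest library. The 10 genes did not share 1 pattern, and their mean is an average over opposed ones. Between pairs of them, r over the 9 libraries ran from -0.932 (Slco1c1 with Abcb1a) to 0.877 (Slc2a1 with Abcg2). Slco1c1 was highest in Ctrl 3.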

How the data were processed

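Bulk RNA of the substantia nigra pars compacta was sequenced in 9 libraries, grouped by title into MPTPKD, MPTP and Ctrl. Per the file headers, the authors deposited raw read counts and FPKM for each gene and library. The submitters' processing notes name mm10 (GRCm38) as the build. The sources used here give no aligner, counting tool, annotation release or strand setting, so reads of overlapping or near-identical genes may be exchanged. The 10 lines that name no gene were left out. The 14949 genes averaging 0.5 FPKM or more were tested with edgeR 4.0.16 (TMM scaling, robust quasi-likelihood, R 4.3.3), all 9 libraries in 1 model, with Benjamini-Hochberg adjustment. The procedure was tested on simulated data. DESeq2 1.42.0 and limma 3.58.1 were alternatives. No 2 libraries of a group agreed within sampling noise. Depth was 33.2 M to 40.0 M reads, and the counting error of the lowest of the 10 genes' counts (503 reads) was 4.46%. The 95% intervals use the model's standard errors. The genes and lists were chosen with earlier results of these data known. Up to 4 genes of smallest unadjusted p per list and comparison could be named, of which only some are printed, plus fixed landmarks. Coordinates came from GENCODE M21 and promoter windows from RefSeq (GRCm38.p6). Libraries with the same number in their titles deviated together between MPTPKD and MPTP (r = 0.107 to 0.182, each over 0.1). They did not in the other pairs of groups (r = -0.151 to 0.0472 for MPTP with Ctrl, -0.00735 to 0.0783 for MPTPKD with Ctrl). Libraries with different numbers gave r = -0.15 to 0.0413 for MPTPKD with MPTP and -0.0981 to 0.0896 for MPTPKD with Ctrl. For MPTP with Ctrl they gave -0.168 to 0.186, so values of that size also arose without a shared number.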

Additional observations from a re-analysis of the deposited data

How the results depend on the processing

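Of the 10 genes none passed the threshold in any comparison under any of 21 alternatives, and the lowest adjusted p was 0.464 (Slc2a1, MPTPKD against MPTP, without MPTPKD 1). The sign of the log2 fold change held under every alternative in 13 of 30 gene and comparison pairs, and 25 of 630 values moved by more than 1 SE. Abcg2 depended on the unit, as its FPKM moved apart from its counts. With groups of 3 libraries, changes of any size within the intervals given remain possible.

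Counts of all genes called changed more. In MPTP against Ctrl, 2 genes by edgeR became 14 with DESeq2, 0 with limma at each pseudocount, 0 with no robust moderation and 1 without Ctrl 3 and MPTP 1; leaving out 1 library gave 0 to 4. In MPTPKD against MPTP, 0 became 19 with DESeq2 and 1 without Ctrl 3 and MPTP 1; leaving out 1 library gave 0 to 1. In MPTPKD against Ctrl, 0 became 16 with DESeq2, 1 with no filter and 4 with the 2 groups alone; leaving out 1 library gave 0 to 4. With the replicate block the counts were 3 in MPTP against Ctrl, 0 in MPTPKD against MPTP and 5 in MPTPKD against Ctrl, and it changed no call of the 10 genes. The causes were not tested.

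The median log2 fold change of the 10 genes in MPTPKD against Ctrl was -0.00447, -0.00371 and -0.0052 with limma at pseudocounts of 0.5, 1 and 0.1, against 0.04. Leaving out 1 library gave medians of 0.00501 to 0.0912 in MPTPKD against Ctrl, -0.0195 to 0.0476 in MPTPKD against MPTP and -0.058 to 0.008 in MPTP against Ctrl.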
